A study of Homo sapiens with 2 samples.

Results

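Translation factors are the proteins that load ribosomes onto messenger RNA, select the start codon and move the ribosome along the coding sequence. Initiation runs through eIF2, which brings the initiator tRNA, and the scanning factors eIF1, eIF1A and eIF5. It also needs eIF5B, which joins the large subunit and is grouped below with the scanning factors. The large scaffold eIF3 also takes part, as does the eIF4 group, which binds the cap and unwinds the leader. Elongation depends on eEF1, which delivers aminoacyl-tRNA, on eEF2, which moves the ribosome by a codon, and on eIF5A, which helps at slow peptide bonds. Their own messenger RNAs are abundant in dividing cells, and many carry a pyrimidine-rich start that couples their translation to mTOR signalling.

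The genes described here are the 50 translation initiation and elongation factor genes among the 10145 genes listed for either library. They were chosen by name: a symbol that begins with EIF or EEF and a digit, without a hyphen, without the ending P and a digit that marks pseudogenes, and without EIF4E2 and EIF4ENIF1. The rule uses names and no measured value, though it was set with earlier results of these data known. The same ending also leaves out EIF4EBP1 and EIF4EBP2, which encode proteins that block eIF4E, and their values are given with the other genes of the pathway. All 50 symbols matched a RefSeq gene, 45 genes were listed for both libraries, 2 for ZC3H7B alone and 3 for ZC3H7A alone.

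PAR-CLIP, in which 4-thiouridine in RNA is crosslinked to a bound protein by ultraviolet light and the protein is then pulled down, recorded where Flag/HA-ZC3H7B and Flag/HA-ZC3H7A, both CCCH zinc finger proteins, touched RNA in HEK293 cells, a line from human embryonic kidney. Both groups overexpressed their tagged protein under doxycycline (1 µg/mL for 24 h), and both were labelled with 100 µM 4-thiouridine for 16 h and crosslinked at 365 nm. Each protein has a single library, and none was made here without a tagged protein. Gene rows held 2409465 reads in 99805 clusters for ZC3H7B and 3779662 reads in 51808 clusters for ZC3H7A, where a cluster is a group of overlapping reads with T-to-C conversions at crosslinks. Each distinct read was counted 1.99 times in the ZC3H7B library and 12.6 times in the ZC3H7A library, so reads of the second are far more often copies of each other. Each tagged gene had more reads in its own library, with 3768 against 1362 reads for ZC3H7B and 158 against 82704 for ZC3H7A (ZC3H7B library given first). With 1 library per protein no difference has a replicate check and no p-value was computed. Intervals are exact 95% intervals for counting error, with each count taken as independent, so copies make those on reads too narrow. Intervals on mean reads per cluster also take the numbers of clusters as fixed, so error in those numbers is left out. Bound reads also depend on how much of a messenger is present, which was not measured here, and reads are not set against transcript length, so they are compared between libraries and not between genes.

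The 50 genes held 21817 reads in 620 clusters in the ZC3H7B library, 0.905% of its gene reads, and 44377 reads in 467 clusters in the ZC3H7A library, 1.17%. For each gene the log2 ratio sets ZC3H7B reads over ZC3H7A reads, scaled so that the median of 7168 genes is 0. Genes whose whole interval lay beyond 2-fold were called higher in that library. The 45 genes listed for both had a median log2 ratio of -0.74, with 12 above 0 and 33 below, against 0 for all genes. Of the 45, 5 were higher in the ZC3H7B library (11.1%, against 18.2% of all genes), 12 were higher in the ZC3H7A library (26.7%, against 18% of all genes), and 28 were called in neither direction. With distinct reads in place of reads, 2 were higher in the ZC3H7B library (4.44%, against 7.28% of all genes) and 8 in the ZC3H7A library (17.8%, against 10.1% of all genes). All of these were called by reads as well, and both measures together called 2 members towards ZC3H7B (against 7.18% of all genes) and 8 towards ZC3H7A (against 9.79%). The 2 towards ZC3H7B were EIF1AD, a protein with an eIF1A-like domain, and EIF2AK3, a kinase of eIF2 alpha. With distinct reads, 0 of 34 compared initiation factor genes and 0 of 6 compared genes with EEF names were called towards ZC3H7B. The family's median was -0.74 with distinct reads and -0.66 with numbers of clusters, but 0.0047 with mean reads per cluster. By mean reads per cluster 3 members were called towards ZC3H7B (against 6.18% of all genes) and 1 towards ZC3H7A (against 4.65%), and by clusters 0 (against 0.321%) and 1 (against 0.223%). Cytosolic ribosomal protein genes had a median of -1.91, with 2 of 65 called towards ZC3H7B and 36 towards ZC3H7A. Cytosolic aminoacyl-tRNA synthetase genes had a median of -0.43, with 0 of 19 and 6 of 19. With distinct reads the ribosomal protein genes had 1 and 33 of 65. The synthetase genes then had 0 and 2 of 19, and the second is 10.5%, near the 10.1% of all genes.

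**Figure D1:**
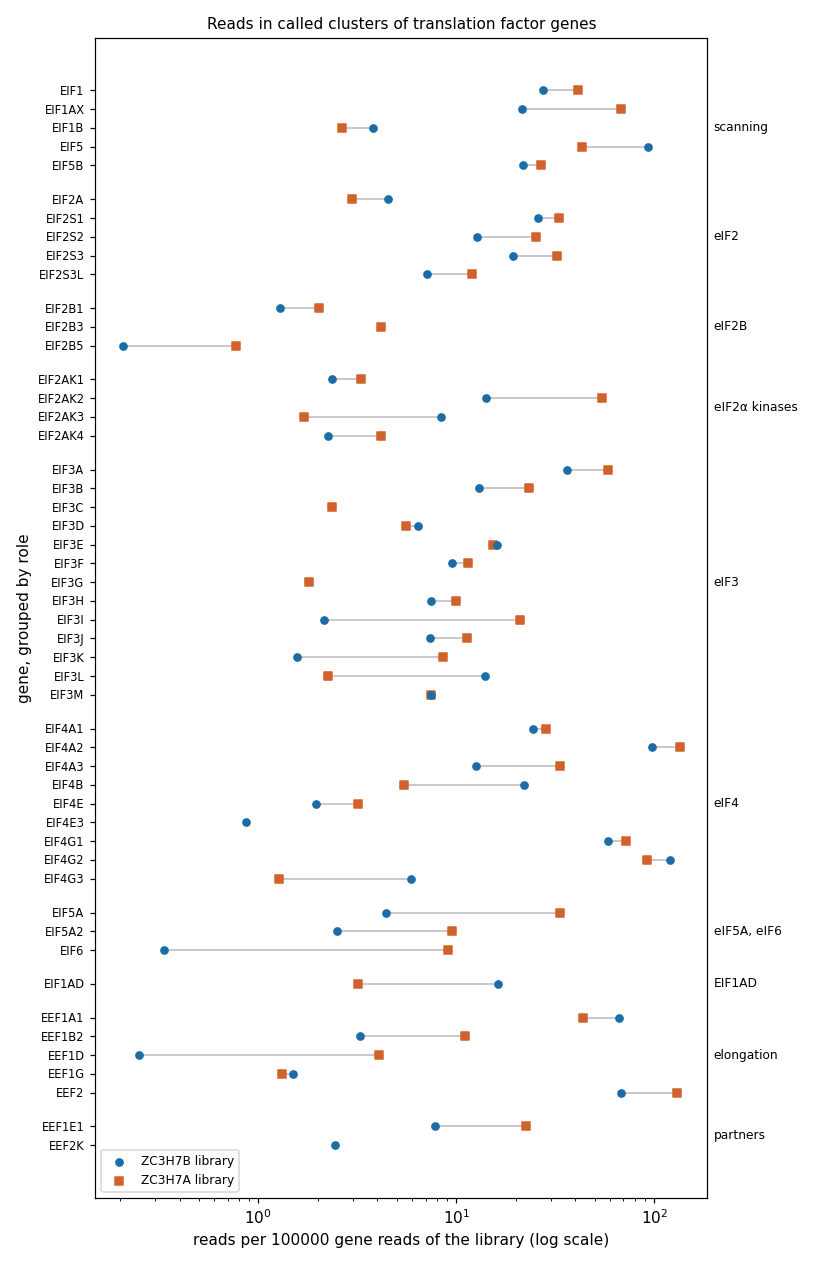
Reads in called clusters of each translation factor gene, per 100000 gene reads of its library (log axis), for ZC3H7B (circles) and ZC3H7A (squares), grouped by role. A gene with 1 symbol had no called cluster in the other library. Values run from 0.208 (EIF2B5) to 121 (EIF4G2) in the ZC3H7B library and from 0.767 (EIF2B5) to 134 (EIF4A2) in the ZC3H7A library.

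**Figure D2:**
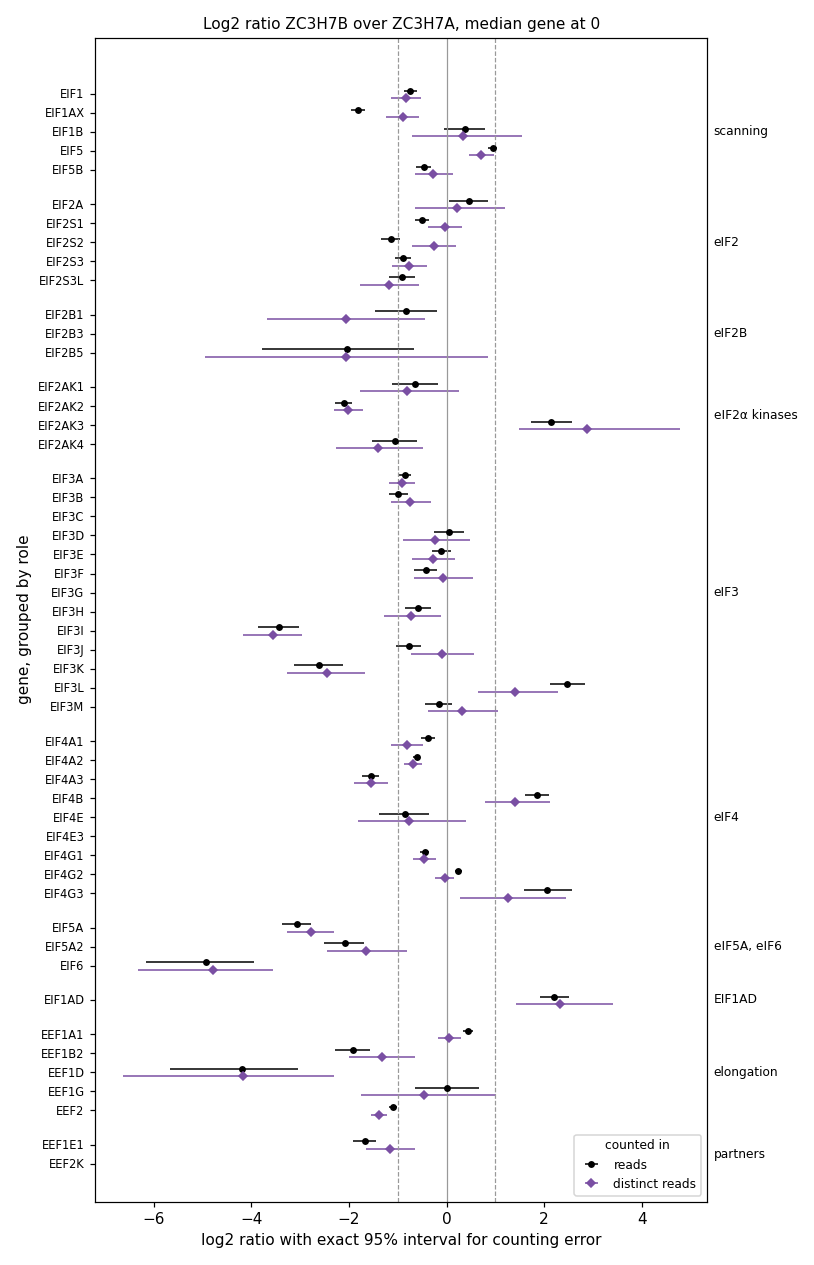
Log2 ratio of ZC3H7B over ZC3H7A for the 45 genes listed in both, by reads (circles) and by distinct reads (diamonds), with exact 95% intervals for counting error from 1 library each. Dashed lines mark 2-fold in either direction. EIF6 and EEF1D lie farthest to the left and EIF3L, EIF1AD and EIF2AK3 farthest to the right.

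Part of the family begins with the pyrimidine-rich start known as a 5' terminal oligopyrimidine (TOP) motif, which is the feature through which LARP1 and mTOR act on such messengers. RefSeq promoter entries (GRCh38.p14) were found for 42 of the 50 genes, and in 12 of these (28.6%) the annotated transcript began with C followed by at least 4 bases that were each C or T. Only the first base of each entry, on the transcript strand, was searched. Of all 27305 genes with an entry, listed in these libraries or not, 5.14% held such a start (4.07% of 35116 entries). Among genes listed for either library that had an entry, 590 held it and 7151 did not. EEF1B2 and EIF2S3L also have an annotated start without it. A match is a feature of the annotated letters and not evidence of binding. The windows below show 8 of the 12 starts: all 3 among the elongation factors, both in the eIF4 group, EIF3K as the one eIF3 gene among them that was called, and EIF2S3 with its copy. Each runs from 10 bases before the annotated start to the 20th base of the transcript, with the pyrimidine run in capitals.
EEF1A1 (chr6:73521013-73521042, minus strand): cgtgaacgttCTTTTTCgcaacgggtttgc
EEF1B2 (chr2:206159885-206159914, plus strand): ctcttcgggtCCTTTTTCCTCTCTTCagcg
EEF2 (chr19:3985444-3985473, minus strand): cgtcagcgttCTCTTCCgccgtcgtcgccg
EIF4A2 (chr3:186783567-186783596, plus strand): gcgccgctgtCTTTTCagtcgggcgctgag
EIF4B (chr12:53006446-53006475, plus strand): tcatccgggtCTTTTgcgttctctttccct
EIF3K (chr19:38619178-38619207, plus strand): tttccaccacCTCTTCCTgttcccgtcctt
EIF2S3 (chrX:24054946-24054975, plus strand): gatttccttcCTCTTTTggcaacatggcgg
EIF2S3L (chr12:10505880-10505909, plus strand): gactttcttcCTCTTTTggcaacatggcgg

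Genes with this start ranged from a log2 ratio of -2.60 (EIF3K) to 1.85 (EIF4B). The 12 had a median of -0.52, with 1 higher in the ZC3H7B library and 3 in the ZC3H7A library, and the 26 compared without such a start had a median of -0.80, with 3 and 8. As shares these are 8.33% and 25.0% of the 12, against 16.6% and 20.9% of all 440 compared genes with the start. With 12 genes these shares rest on 1 and 3 genes. For the 26 without the start the shares were 11.54% and 30.77%, against 18.65% and 17.09% of all 5319 compared genes without it. In the 5' UTR lay 1 of 137 clusters of the 12 genes in the ZC3H7B library and 6 of 120 in the ZC3H7A library. Of those 6 clusters 4 were on EEF1B2, so the count rests on that gene. Among the other genes of the family with an entry, 3 of 392 and 9 of 283 clusters lay in the 5' UTR.

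Of the 5 scanning factors, EIF1AX was higher in the ZC3H7A library (20%, against 18% of all genes) and none in the ZC3H7B library (against 18.2%). EIF1AX encodes eIF1A, which keeps the scanning ribosome open, and had 518 reads in the ZC3H7B library and 2556 in the ZC3H7A library, a log2 ratio of -1.81 (-1.95 to -1.67). In distinct reads it had 241 and 108, at -0.90 (-1.23 to -0.56), no longer beyond 2-fold. EIF5, which encodes the GTPase activator of eIF2, went the other way, with 2247 and 1637 reads and a log2 ratio of 0.95 (0.86 to 1.04), which became a call when scaled to library totals (1.11). EIF1, the start codon fidelity factor, had 660 and 1553 reads (-0.74, -0.88 to -0.61), and EIF5B, which joins the large subunit, 521 and 1015 (-0.47, -0.62 to -0.32). EIF1B, a paralogue of EIF1, had 92 and 100 reads at 0.37 (-0.05 to 0.80), but with distinct reads its interval (-0.72 to 1.54) overlapped that of EIF1 (-1.14 to -0.53). EIF1AD, a protein with an eIF1A-like domain, had 394 reads in 18 clusters in the ZC3H7B library and 120 reads in 2 clusters in the ZC3H7A library. Its log2 ratio was 2.21 (1.91 to 2.52) by reads, 2.32 (1.41 to 3.40) by distinct reads and 0.01 by mean reads per cluster.

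None of the 5 genes for eIF2 subunits and the related factor eIF2A was counted as higher in either library. Of all genes 18.2% were higher in the ZC3H7B library and 18% in the ZC3H7A library. EIF2S1, the alpha subunit that stress kinases phosphorylate, had 626 reads in the ZC3H7B library and 1253 in the ZC3H7A library, a log2 ratio of -0.51 (-0.65 to -0.37). EIF2S2 (beta subunit) had 306 and 951 reads at -1.14 (-1.33 to -0.96), and EIF2S3 (gamma subunit) 469 and 1222 at -0.89 (-1.05 to -0.73). EIF2S3L, named EIF2S3B in RefSeq, is a copy of EIF2S3, and 28 of the 30 bases in the windows above were the same. It had 172 and 455 reads at -0.91 (-1.17 to -0.65), next to the value of EIF2S3, and reads cannot be assigned firmly between near-identical copies. EIF2A stood at 0.45 (0.06 to 0.85) with 109 and 112 reads.

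The exchange factor eIF2B, which recharges eIF2 with GTP, was thinly covered. EIF2B1 had 31 reads in 1 cluster in the ZC3H7B library and 77 reads in 2 clusters in the ZC3H7A library, and EIF2B5, the catalytic subunit, 5 and 29 reads in 1 cluster each. EIF2B3 was listed for ZC3H7A alone, with 158 reads in 2 clusters made of 10 distinct reads.

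Of the 4 genes for kinases that phosphorylate eIF2 alpha, 1 was higher in each library (25% each, against 18.2% and 18% of all genes). Their median log2 ratio was -0.85, with 1 above 0 and 3 below. EIF2AK3 (PERK, the sensor of endoplasmic reticulum stress) had 201 reads in 16 clusters in the ZC3H7B library, against 64 reads in 1 cluster in the ZC3H7A library. Its log2 ratio was 2.14 (1.73 to 2.57) by reads and 2.87 (1.48 to 4.77) by distinct reads (122 and 4), but -0.88 by mean reads per cluster. EIF2AK2 (PKR, the sensor of double-stranded RNA) had 28 clusters in each library, with 339 reads for ZC3H7B and 2051 for ZC3H7A. It stood at -2.10 (-2.27 to -1.94) by reads and -2.01 (-2.31 to -1.71) by distinct reads. EIF2AK1 (HRI) and EIF2AK4 (GCN2) were counted in neither direction, at -0.64 (-1.12 to -0.18) with 57 and 125 reads and -1.06 (-1.53 to -0.60) with 54 and 158 reads.

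Of 11 compared genes for eIF3 subunits 1 was higher in the ZC3H7B library and 2 in the ZC3H7A library (9.09% and 18.2%, against 18.2% and 18% of all genes), with a median log2 ratio of -0.58. EIF3L had 335 reads in 18 clusters in the ZC3H7B library and 85 reads in 5 clusters in the ZC3H7A library, the highest ratio of the 45 genes at 2.47 (2.12 to 2.83). With distinct reads, 166 and 15, it stood at 1.41 (0.65 to 2.28), so its interval no longer lay beyond 2-fold. EIF3I, a beta-propeller subunit, had 52 reads in 3 clusters and 790 reads in 11 clusters, at -3.43 (-3.87 to -3.03) by reads and -3.55 (-4.18 to -2.95) by distinct reads. EIF3K had 38 and 325 reads, at -2.60 (-3.13 to -2.12) and -2.46 (-3.27 to -1.66).

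The other eIF3 genes did not pass 2-fold. EIF3A, the scaffold subunit, had 872 and 2211 reads at -0.85 (-0.96 to -0.74), and EIF3B 315 and 878 at -0.99 (-1.18 to -0.80). EIF3D, which has a cap-binding role of its own, stood at 0.05 (-0.26 to 0.35), EIF3E at -0.11 (-0.30 to 0.08) and EIF3M at -0.16 (-0.44 to 0.11), with intervals that held 0. EIF3F, EIF3H and EIF3J stood at -0.43, -0.58 and -0.78. EIF3C (89 reads) and EIF3G (68 reads) were listed for ZC3H7A alone, with 1 cluster each. A near-identical gene, EIF3CL, exists beside EIF3C, so its reads are uncertain.

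Of the 8 compared genes of the eIF4 group, 2 were higher in the ZC3H7B library and 1 in the ZC3H7A library, with a median log2 ratio of -0.41. These are 25% and 12.5%, against 18.2% and 18% of all genes. With distinct reads the counts were 0 and 1, against 7.28% and 10.1% of all genes. EIF4A2, which encodes an RNA helicase, had 2362 reads in the ZC3H7B library and 5083 in the ZC3H7A library, a log2 ratio of -0.61 (-0.68 to -0.54). Its paralogue EIF4A1 had 589 and 1077 reads at -0.38 (-0.53 to -0.23), and with distinct reads the order of the pair turned round, at -0.68 (-0.86 to -0.49) for EIF4A2 and -0.81 (-1.14 to -0.48) for EIF4A1. EIF4A3, the related helicase of the exon junction complex, had 304 and 1257 reads at -1.56 (-1.74 to -1.37), and -1.55 (-1.90 to -1.20) with distinct reads. By mean reads per cluster, over 8 and 12 clusters, EIF4A3 stood at 0.0047 (-0.18 to 0.19).

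Among the scaffolds, EIF4G2 (DAP5), which lacks the eIF4E-binding part, had 2906 and 3464 reads at 0.24 (0.17 to 0.31), and EIF4G1 1414 and 2718 at -0.45 (-0.54 to -0.36). EIF4G3 was farther from EIF4G1 than EIF4G2 was, with 143 reads in 16 clusters in the ZC3H7B library and 48 reads in 3 clusters in the ZC3H7A library. Its log2 ratio was 2.07 (1.59 to 2.57) by reads and 1.27 (0.28 to 2.44) by distinct reads, and the second did not overlap that of EIF4G1 (-0.69 to -0.22). All 3 of its clusters in the ZC3H7A library were intronic, against 6 of 16 in the ZC3H7B library, where 8 lay in coding sequence. EIF4B, the cofactor of the helicase, had 528 and 206 reads at 1.85 (1.62 to 2.09), or 1.41 (0.78 to 2.11) with distinct reads. EIF4E, the cap-binding protein, had 47 and 120 reads at -0.86 (-1.38 to -0.36), and EIF4E3 was listed for ZC3H7B alone with 21 reads in 3 clusters.

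The 3 genes for eIF5A and eIF6 were all higher in the ZC3H7A library, against 18% of all genes. With distinct reads 2 of the 3 were called, against 10.1% of all genes. EIF6, which encodes a factor that keeps ribosomal subunits apart, had 8 reads in 1 cluster in the ZC3H7B library, against 343 reads in 8 clusters in the ZC3H7A library. Its log2 ratio was -4.93 (-6.15 to -3.93) by reads, -4.79 (-6.32 to -3.55) by distinct reads (6 and 40) and -3.93 (-9.40 to -1.03) by clusters, the one gene of the family beyond 2-fold in the ZC3H7A direction by clusters. EIF5A had 107 and 1262 reads at -3.07 (-3.37 to -2.78), or -2.78 (-3.27 to -2.30) with distinct reads and -1.41 (-1.71 to -1.13) by mean reads per cluster. EIF5A2, its paralogue, had 60 and 358 reads at -2.08 (-2.50 to -1.69), but -1.64 (-2.45 to -0.81) with distinct reads.

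Among the elongation factors 3 of 5 were higher in the ZC3H7A library (60%, against 18% of all genes). None were higher in the ZC3H7B library, against 18.2% of all genes. With distinct reads 2 of 5 were called towards ZC3H7A (40%, against 10.1% of all genes). EEF2 had 1646 reads in 22 clusters in the ZC3H7B library and 4920 reads in 33 clusters in the ZC3H7A library, a log2 ratio of -1.09 (-1.17 to -1.01), and -1.39 (-1.56 to -1.23) with distinct reads. Scaled to library totals EEF2 was no longer called, at -0.93 (-1.01 to -0.85). By mean reads per cluster EEF2 stood on the other side, at 0.47 (0.39 to 0.55). EEF1B2, an exchange factor of eEF1A, had 79 and 418 reads at -1.91 (-2.28 to -1.56), or -1.33 (-1.99 to -0.65) with distinct reads. EEF1D, another subunit of the exchange complex, had 6 reads in 1 cluster and 154 reads in 3 clusters, at -4.19 (-5.66 to -3.03) and -4.17 (-6.62 to -2.31). EEF1G stood at 0.02 (-0.64 to 0.67) with 36 and 50 reads.

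EEF1A1, which delivers aminoacyl-tRNA and is among the most abundant messengers of human cells, was not counted in either direction. It had 1595 reads in 12 clusters in the ZC3H7B library and 1653 reads in 19 clusters in the ZC3H7A library, at 0.44 (0.34 to 0.54) by reads and 0.06 (-0.18 to 0.30) by distinct reads. By mean reads per cluster it stood at 2.08 (1.98 to 2.18), beyond 2-fold, with the 12 and 19 clusters taken as fixed. By clusters alone it stood at -1.59 (-2.76 to -0.47). EEF1E1, a scaffold of the multi-synthetase complex that shares the name, had 189 and 848 reads at -1.67 (-1.91 to -1.44), or -1.16 (-1.66 to -0.64) with distinct reads. EEF2K, the kinase that inactivates eEF2, was listed for ZC3H7B alone, with 59 reads in 3 clusters.

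Processed pseudogenes of these factors hold reads that cannot be told firmly from those of the parent gene. There were 20 such rows, 11 of them named for EEF1A1, with 162 reads on 3 rows in the ZC3H7B library and 2902 reads on 9 rows in the ZC3H7A library. Added to the parent, they moved EEF1A1 to a log2 ratio of -0.88 (-0.96 to -0.80), against 0.44 without them. The median T-to-C fraction was 23% on EEF1A1P22, 15% on EEF1A1P29 and 16% on EEF1A1P9 in the ZC3H7A library, against 93% on EEF1A1, so most reads on these 3 pseudogenes carried no conversion. EEF1A1P4 held most of the sum, with 128 reads at 52% for ZC3H7B and 1844 reads at 69% for ZC3H7A. EIF1AXP1 was unlike them, with 43 reads at a median of 100% in the ZC3H7B library and 2208 reads at 99% in the ZC3H7A library, almost as many reads as EIF1AX there. With its reads EIF1AX moved to -2.59 (-2.72 to -2.47). EIF2S2P4, with 61 and 648 reads, moved EIF2S2 to -1.63 (-1.80 to -1.47), which is beyond 2-fold, and EIF3KP2, with 118 reads for ZC3H7A alone, moved EIF3K to -3.05 (-3.57 to -2.57).

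Clusters on the family lay in coding sequence more often than those of other genes, in both libraries. Coding sequence held 44.8% of the 620 clusters (40.9 to 48.9%) in the ZC3H7B library, against 29.5% for all other genes, and 54.0% of the 467 clusters (49.3 to 58.6%) in the ZC3H7A library, against 42.6%. The 3' UTR held 37.7% (33.9 to 41.7%) in the ZC3H7B library, against 55.9% for other genes, and 28.7% (24.6 to 33.0%) in the ZC3H7A library, against 39.9%. As a median over genes in place of pooled clusters, the family's 3' UTR share was lower, at 19.1% and 16.0%. The cytosolic aminoacyl-tRNA synthetase genes had larger coding shares than the family, at 65.2% for ZC3H7B and 70.1% for ZC3H7A. Start codons held 12 clusters (1.94%, 1.00 to 3.36%) and 10 clusters (2.14%, 1.03 to 3.90%), against 0.637% and 1.43% for other genes, and the second interval held the value of other genes. The 5' UTR held 4 clusters (0.645%) and 17 clusters (3.64%), close to the 0.772% and 3.61% of all genes. Clusters of 1 gene are not independent, and the lengths of coding sequence and 3' UTR were not set against these shares. The family had more clusters per gene than all genes, with medians of 12 against 7 in the ZC3H7B library and 7.5 against 4 in the ZC3H7A library. These numbers were not set against transcript length or against the amount of messenger, which was not measured here.

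**Figure D3:**
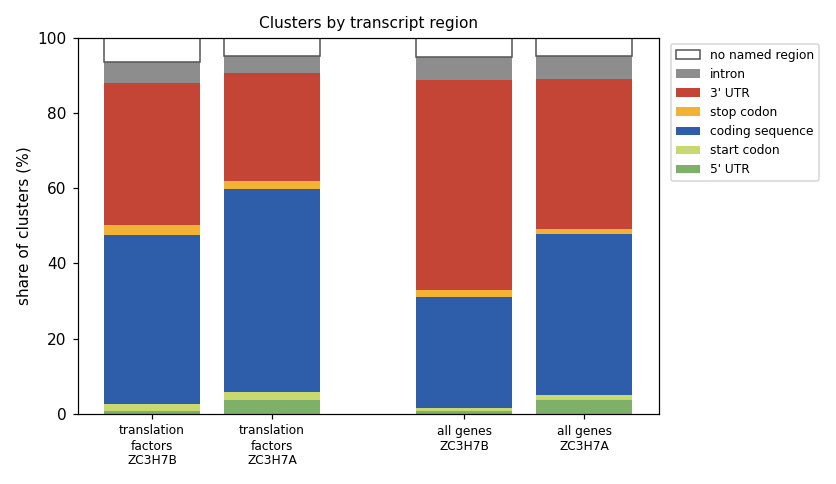
Share of clusters by transcript region (stacked to 100%) for the 50 translation factor genes and for all genes, ZC3H7B left of ZC3H7A in each pair. Coding sequence takes 44.8% and 54.0% of the family's clusters, against 29.6% and 42.7% of those of all genes.

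The roles differed in where their clusters lay. The eIF3 genes were mostly covered in coding sequence, with 64.7% of 136 clusters in the ZC3H7B library and 77.0% of 100 in the ZC3H7A library, while the scanning factors had 57.8% of 102 clusters in the 3' UTR for ZC3H7B and an even split for ZC3H7A, with 31 of 70 in the 3' UTR and 30 in coding sequence. Among them EIF5B was mostly coding, with 16 of 22 and 15 of 18. On EIF3A, 26 of 32 ZC3H7B clusters and 26 of 28 ZC3H7A clusters were coding, on EIF4G1 31 of 40 and 23 of 30, and on EEF2 15 of 22 and 24 of 33. EEF1A1 was the reverse of EEF2, with 10 of 12 and 18 of 19 clusters in the 3' UTR. EIF1AX had 15 of 16 and 12 of 14 in the 3' UTR, and EIF3F, which encodes an eIF3 subunit, 10 of 10 and 5 of 5. Clusters on the pseudogene rows of EEF1A1, EIF1AX and EIF3F had no named region and are not in these counts. At the start codon, EIF4A2 had 2 clusters in each library, while EEF1B2 had 1 in each and none in coding sequence.

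Within genes, coding sequence took a smaller share in the ZC3H7B library than in the ZC3H7A library for most of the family, at a rate near that of all genes. Of 42 genes with at least 20 reads in each library, the coding share was higher in the ZC3H7A library for 23 (54.8%, against 60.4% of all genes) and higher in the ZC3H7B library for 14 (33.3%, against 23.6% of all genes). For the 3' UTR, 25 had the larger share for ZC3H7B (59.5%, against 62.8% of all genes) and 12 for ZC3H7A (28.6%, against 18.4% of all genes). The median difference in coding share, ZC3H7B minus ZC3H7A, was -5 percentage points for the family and -8.33 for all genes.

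Next come the 3 genes with the largest difference in 3' UTR share among those with at least 3 clusters in each library. They were chosen after their values were seen. On EIF2S1, 11 of 35 ZC3H7B clusters were coding and 20 lay in the 3' UTR, against 9 and 1 of 12 for ZC3H7A. On EIF5 the same counts were 11 and 30 of 44, against 10 and 6 of 22. On EIF3J, which encodes a loosely attached eIF3 subunit, they were 1 and 11 of 12, against 4 and 4 of 8. On EIF2S1 and EIF5 the number in coding sequence was about the same in both libraries, and the ZC3H7B library had more clusters in the 3' UTR. Over all genes the ZC3H7B library held 29505 coding and 55722 3' UTR clusters, and the ZC3H7A library 22109 and 20608. EIF3B went the other way from EIF2S1 and EIF5, with 14 of 15 clusters in coding sequence for ZC3H7B and 10 of 13 for ZC3H7A.

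**Figure D4:**
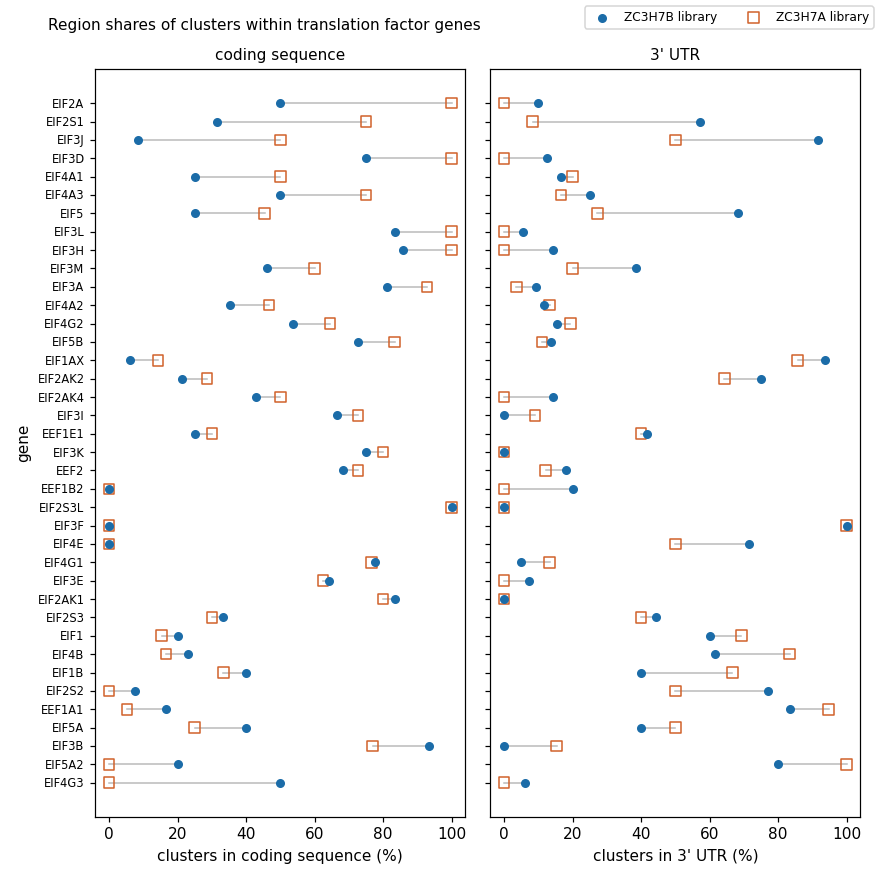
Share of each gene's clusters in coding sequence (left) and in the 3' UTR (right) for the 38 translation factor genes with at least 3 clusters in each library, ZC3H7B as filled circles and ZC3H7A as open squares. Genes are sorted by the difference in coding share, from EIF2A at -50 percentage points to EIF4G3 at 50 points, both with 4 clusters or fewer in the ZC3H7A library.

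T-to-C conversion on these genes was slightly below that of all genes. The mean share of converted reads over a gene's clusters had a median of 89.4% over the 47 genes of the ZC3H7B library, against 91.1% for all genes, and of 94.6% over the 48 genes of the ZC3H7A library, against 97.4%. The lowest values were 62.5% for EIF6 in the ZC3H7B library, from 8 reads, and 66.3% for EIF3C in the ZC3H7A library, from 1 cluster. Reads per distinct read were 2.14 for the family in the ZC3H7B library and 12.1 in the ZC3H7A library, near the 1.99 and 12.6 of all genes.

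Other genes of the pathway were taken from lists of 63 genes, of which 47 could be compared. Of these 47, 5 were higher in the ZC3H7B library and 9 in the ZC3H7A library (10.6% and 19.1%, against 18.2% and 18% of all genes), with a median log2 ratio of -0.36. The 4E-binding proteins were opposed: EIF4EBP2 had 784 reads in 41 clusters for ZC3H7B and 332 reads in 8 clusters for ZC3H7A, at 1.73 (1.55 to 1.92), and EIF4EBP1 34 and 310 reads, at -2.70 (-3.25 to -2.18). Both stayed beyond 2-fold with distinct reads. In the initiation list LARP1, which binds the TOP start, had 2655 and 1235 reads at 1.60 (1.50 to 1.70), and with distinct reads it stood at 1.18 (0.92 to 1.45), no longer called. PDCD4, an inhibitor of the eIF4A helicase, had 644 and 2766 reads at -1.61 (-1.74 to -1.49), and PPP1R15B, a subunit of the phosphatase that reverses eIF2 alpha phosphorylation, 3390 and 5655 at -0.25 (-0.31 to -0.18). That list gave 2 and 5 calls of 25 (8% and 20%, against 18.2% and 18% of all genes), and its median was -0.25. Its highest and lowest ratios, named after their values were seen, were those of PAIP2B, an inhibitor of poly(A)-binding protein, with 518 and 51 reads at 3.84 (3.42 to 4.28), and PPP1R15A, the paralogue of PPP1R15B, with 13 and 258 reads at -3.82 (-4.75 to -3.02). Both kept their call with distinct reads, at 3.69 and -3.41.

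The list of elongation partners gave 1 call for ZC3H7B and 2 for ZC3H7A of 12 genes (8.33% and 16.7%, against 18.2% and 18% of all genes), with a median log2 ratio of -0.02. GSPT1, which encodes the termination factor eRF3a, had 1284 and 5239 reads at -1.54 (-1.62 to -1.45), ETF1, which encodes eRF1, 669 and 801 at 0.23 (0.08 to 0.38), and DPH3, of the diphthamide pathway that modifies eEF2, 440 and 267 at 1.21 (0.99 to 1.44). With distinct reads GSPT1 stood at -1.03 (-1.21 to -0.84), no longer called. The list then gave 1 call for ZC3H7B and 0 for ZC3H7A of 12 genes, against 7.28% and 10.1% of all genes. Mitochondrial translation factors gave 1 and 1 of 8 (12.5% each, against 18.2% and 18% of all genes), with a median of -0.87. The call towards ZC3H7B was MTIF2, the mitochondrial initiation factor, named after its value was seen, with 152 and 30 reads at 2.83 (2.26 to 3.45). TUFM, the mitochondrial elongation factor Tu, had 52 and 484 reads at -2.73 (-3.17 to -2.31), while GFM2 and GFM1, mitochondrial elongation factor G paralogues, stood at -0.93 and -0.95.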

How the data were processed

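For either library the authors supplied a table in which each row is a gene. Per the file headers, the deposited counts are clusters, reads and distinct reads summed over clusters, and clusters per region. The deposited conversion fraction (share of T-to-C reads in a cluster) comes as its median and as its sum over a gene's clusters, and the sum divided by the clusters gave the mean used here. The tools named, per the submitters' processing notes, are STAR 2.5.2a, Bowtie and cutadapt, with the build hg19. What called the clusters is not given in the sources used here. Start and stop codon cluster numbers were used as the authors deposited them. The exon column was read as coding sequence, because rows with 1 cluster had it there exactly when their class was coding (1762 of 1762 for ZC3H7B and 2200 of 2200 for ZC3H7A).

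Groups came from the sample titles. Rows of repeat and small RNA classes were left out (407 and 282 rows, with 1.51% and 1.57% of reads). Ratios used genes listed in both libraries with at least 20 reads summed, the median of all genes as 0, and exact binomial intervals. On simulated counts for 7162 genes, 94 of 99 set 4-fold higher and 91 of 100 set 4-fold lower were called, and 0 of 6963 unchanged ones. The simulated reads were independent, without copies of each other. How often copied reads give a false call therefore cannot be read from these counts. The genes named were all members beyond 2-fold or listed for 1 library, the 3 with most reads of each role and pathway list, the 5 with most reads per library, and paralogue pairs, other members being named to account for them. Members, lists and this rule were chosen with earlier results of these data known. Clusters per coding length were planned and not computed. Symbols were matched to RefSeq (GRCh38.p14). Python 3.11.15, pandas 2.3.3, numpy 2.4.6, scipy 1.17.1, matplotlib 3.10.9 and, for TMM factors only, edgeR 4.0.16 in R 4.3.3 were used.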

Additional observations from a re-analysis of the deposited data

How the results depend on the processing

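The median log2 ratio of the family (-0.74) lay between -0.78 and -0.58 with distinct reads, clusters, library totals, TMM factors, no minimum, a minimum of 100 reads or the 4E-binding protein genes added. With mean reads per cluster it was 0.0047, on the other side of 0. The 5 genes higher in the ZC3H7B library became 2 with distinct reads or with both read measures required (added after seeing the data), 3 by mean reads per cluster and 0 by clusters. The 12 higher in the ZC3H7A library became 8 with distinct reads or with both read measures required, and 1 by mean reads per cluster or by clusters. Library totals gave 6 and 11 calls (EIF5 gained, EEF2 lost), and genes missing from 1 library kept at 0 gave 7 and 15. Among genes called by reads, mean reads per cluster put EEF2 (0.47), EIF4A3 (0.0047) and EIF2AK3 (-0.88) on the other side of 0. The interval of EIF4A3 (-0.18 to 0.19) held 0, and some genes without a call changed side too. Clusters are few, so their intervals seldom lie beyond 2-fold. Intervals on mean reads per cluster take the numbers of clusters as fixed and so are too narrow. The 3' UTR share, as a median over genes with at least 3 clusters in both libraries, moved to 19.1% for ZC3H7B and 16.0% for ZC3H7A, against 37.7% and 28.7% over pooled clusters. The coding shares stayed within their intervals under every alternative run. No paired analysis was possible because there was 1 library per protein, so none could be left out either. Argonaute genes were not listed under EIF2C names, so leaving them out was not run.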
